A study of Mus musculus with 9 samples.

Results

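Matrix metalloproteinases (MMPs), ADAM and ADAMTS proteases, ADAMTS-like proteins and the tissue inhibitors of metalloproteinases (TIMPs) were followed in the stromal line ST2, which stems from mouse marrow, after the cells had been given dead human neutrophils to engulf. The genes were chosen by symbol alone: every row of the count table named as an Mmp, Adam, Adamts, Adamtsl or Timp gene with at least 10 counts over all 9 libraries. Of 84 symbols with such a name, 45 met the minimum, out of 55453 rows in the table: 13 of 23 MMPs, 14 of 33 ADAMs, 11 of 19 ADAMTS proteases, 3 of 5 ADAMTS-like genes and 4 of 4 TIMPs. Of the others, 27 had no count at all and 12 had 1 to 9 counts. Closest to the minimum were Timp4 with 14 counts on the inside and Adam22 with 9 on the outside.

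The study asked how stromal cells respond to efferocytosis, the uptake of dying cells. ST2 cells carry no engineered allele by their labels (genotype WT) and derive from a Whitlock-Witte type long-term marrow culture of BC8 mice; all groups were grown in alpha MEM lacking ascorbic acid. The neutrophils came from human blood, were kept frozen for at least 18 h, were stained with 20 µM eFluor670 and were offered at 10 per ST2 cell. Fed cells were collected after 3 h or 24 h and sorted for dye uptake equal to at least a whole neutrophil; unfed cells were collected at 24 h. Each of these 3 groups has 3 libraries. With no unfed group at 3 h, feeding and time in culture cannot be told apart in the 3 h comparison, and feeding cannot be told apart from sorting on uptake in either. Because ST2 is a single line and the labels do not say that the replicates are separate cultures, p-values measure only the spread between these libraries, which may be technical. In bulk RNA, fewer cells that express a gene and less of its RNA per cell cannot be told apart.

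As background, MMPs, ADAMs and ADAMTS proteases are zinc enzymes of the cell surface and the extracellular space. MMPs cut collagens and other matrix proteins, ADAM proteases release the outer parts of membrane proteins such as growth factors and cytokine receptors, and ADAMTS proteases cut proteoglycans and procollagens. TIMPs block the active site of these enzymes with differing preference; in marrow stroma, the balance of proteases and TIMPs helps set collagen turnover and the release of cytokines and stem cell factor from the cell surface.

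Total counts per library ran from 44442664 to 55971275. Marrow stroma markers, among them Col1a1, Pdgfrb and Cxcl12, summed to 30496 to 32802 CPM (counts scaled to the size of the library) without feeding, 27240 to 28040 after 3 h and 33887 to 35573 after 24 h of feeding, with 1 of 13 (Thy1) under 1 CPM in each group. Of 17 neutrophil markers, 15 or 16 per group were under 1 CPM. Their sum was 3.72 to 4.11 CPM without feeding, 3.50 to 3.96 after 3 h and 4.36 to 5.70 after 24 h of feeding. Only 2 of them had enough counts for the test described below. Against unfed cells, 1 of these was called higher and 1 lower at 3 h, and neither was called at 24 h. S100a9, Ctsg and Fpr1 were at 0 in every library. The mouse genes of the neutrophil proteases Mmp8 and Mmp25 had 5 and 2 counts over all libraries, below the minimum for inclusion. Of 15 macrophage and leukocyte markers, 11 were under 1 CPM in each group, with sums of 26.1 to 28.3 CPM without feeding, 29.8 to 30.9 after 3 h and 28.9 to 32.6 after 24 h. Adgre1 and C1qa were at 0, and Cd14 gave most of that sum. Endothelial markers (6) summed to at most 0.658 CPM and osteoclast markers (5) to at most 0.200. Mitochondrial genes took 1.12% to 2.22% of counts, with the fed 24 h libraries at 1.78% to 2.22%. The rRNA-linked genes Gm42418 and Gm26917 took 0.201% to 0.350% in the fed 24 h libraries, 0.0904% to 0.115% in the unfed ones, and 0.0927% to 0.249% at 3 h, where fed 3 h replicate 3 was the highest. In a fit without the mitochondrial and these genes, the numbers of protease and TIMP genes called were the same in all 3 comparisons. Reads from the human cells cannot be assessed in this table of mouse genes.

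At 3 h some protease and inhibitor transcripts rose and others fell; at 24 h, most of those called were higher, and no TIMP was among them. Of the 45 genes, 38 had enough counts for the test (edgeR's quasi-likelihood test with Benjamini-Hochberg adjustment over 13568 genes, called at an adjusted p under 0.05). At 3 h against unfed cells, 13 of 38 were higher and 16 lower, or 34.2% and 42.1%, where 25.2% and 25.6% of all tested genes were called higher and lower. At 24 h against unfed cells, 19 were higher and 1 was lower, or 50.0% and 2.63%, beside 14.9% and 15.8% of all tested genes. Between the fed groups, 23 were higher and 13 lower at 24 h than at 3 h, or 60.5% and 34.2%, beside 30.8% and 30.3% of all tested genes, so that the lower share was near the background. The 3 comparisons share libraries pairwise. The median log2 fold change over the 38 genes was -0.12, 0.22 and 0.36 in these comparisons, where that over all tested genes was -0.0085, -0.00126 and -0.00172. An absolute log2 fold change of at least 0.5 was found for 19 of 38 genes at 3 h (50.0%, against 19.3% of all tested genes) and for 6 at 24 h (15.8%, against 9.01%). Of the 6 at 24 h, Adam4 (log2 0.80, adjusted p = 0.310, 3 to 14 counts per library) and Adam5 (log2 0.53, adjusted p = 0.0547) were not called. Among the 19 at 3 h, Mmp13, Adam4 and Adam11 were not called.

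**Figure D1:**
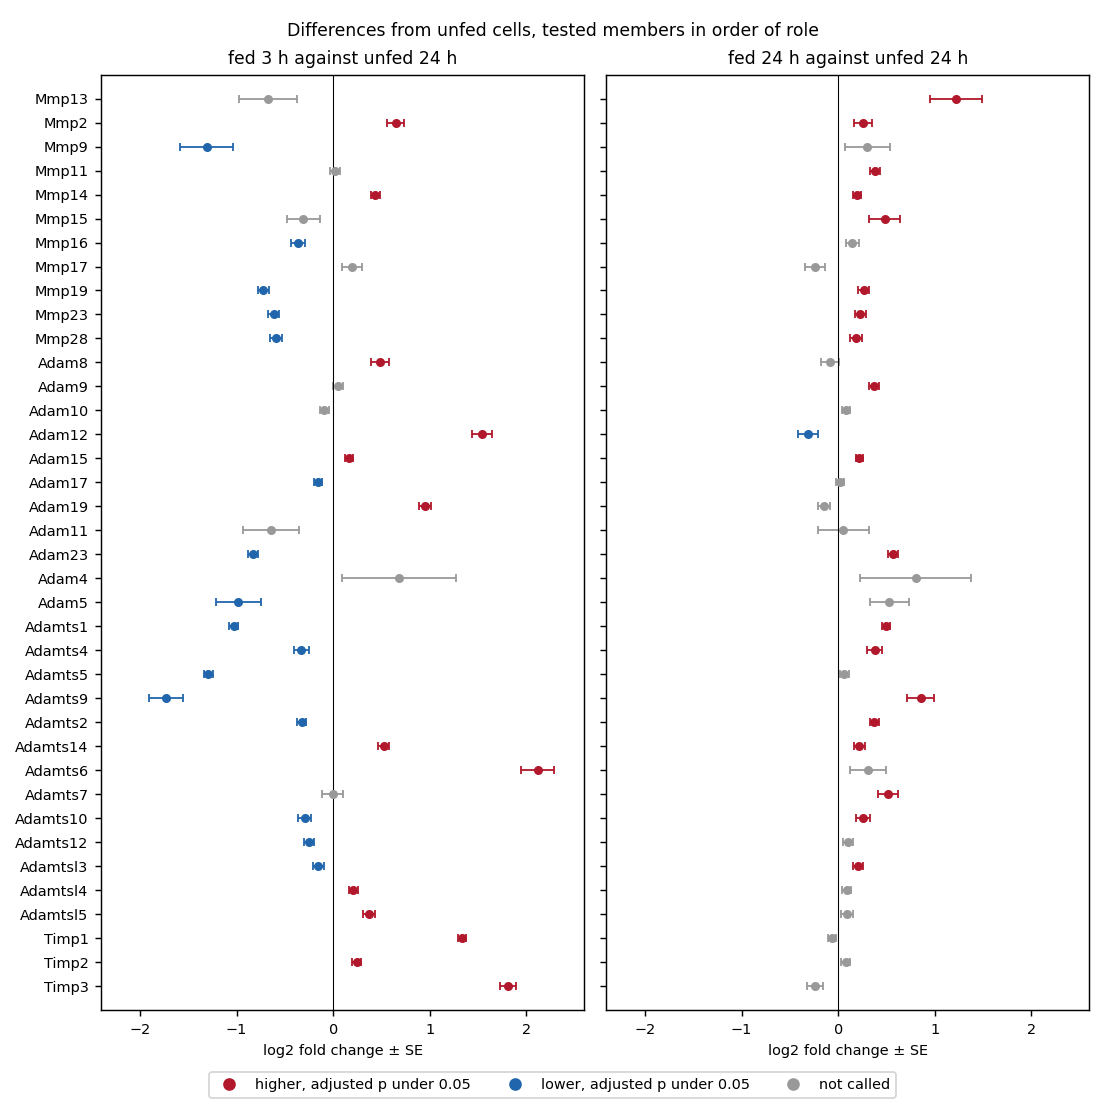
Log2 fold change ± SE (horizontal axis) of the 38 tested genes, grouped by role, in fed 3 h against unfed and fed 24 h against unfed cells; red points were called higher and blue points lower at an adjusted p under 0.05 in edgeR's quasi-likelihood test, grey points were not called, and n = 3 libraries per group. At 3 h, Adamts6, Timp3, Adam12 and Timp1 lie farthest to the right and Adamts9, Mmp9, Adamts5 and Adamts1 farthest to the left; at 24 h, Mmp13 and Adamts9 lie farthest to the right.

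Set per length as TPM (transcript levels scaled to the library, computed here from the counts and each gene's merged exons), the inhibitors led in unfed cells. Timp1 stood at 912 ± 12.4 TPM and Timp2 at 854 ± 22.1 (SD, n = 3), ahead of Mmp14 at 255 ± 9.03 and Adam9 at 238 ± 5.95. These 4 were each apart from the next by more than their SDs. Adam10 (128 ± 3.80) and Adamts2 (119 ± 5.80) overlapped within their SDs, as did Adamts2 and Mmp23 (112 ± 7.52). Mmp19 (72.9 ± 6.25) overlapped with Adamts1 (79.1 ± 2.71) and Adamts5 (74.6 ± 0.975) in the same way. At 3 h, Timp1 reached 2254 ± 64.2 TPM and Timp3 moved from rank 12 (54.5 ± 4.47 TPM) to rank 5 (187 ± 22.7). At 24 h, Timp2 (896 ± 14.7) and Timp1 (868 ± 5.29) again led, and Timp3 stood at rank 15 (45.9 ± 2.21). These levels and ranks are a description, with no test.

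**Figure D2:**
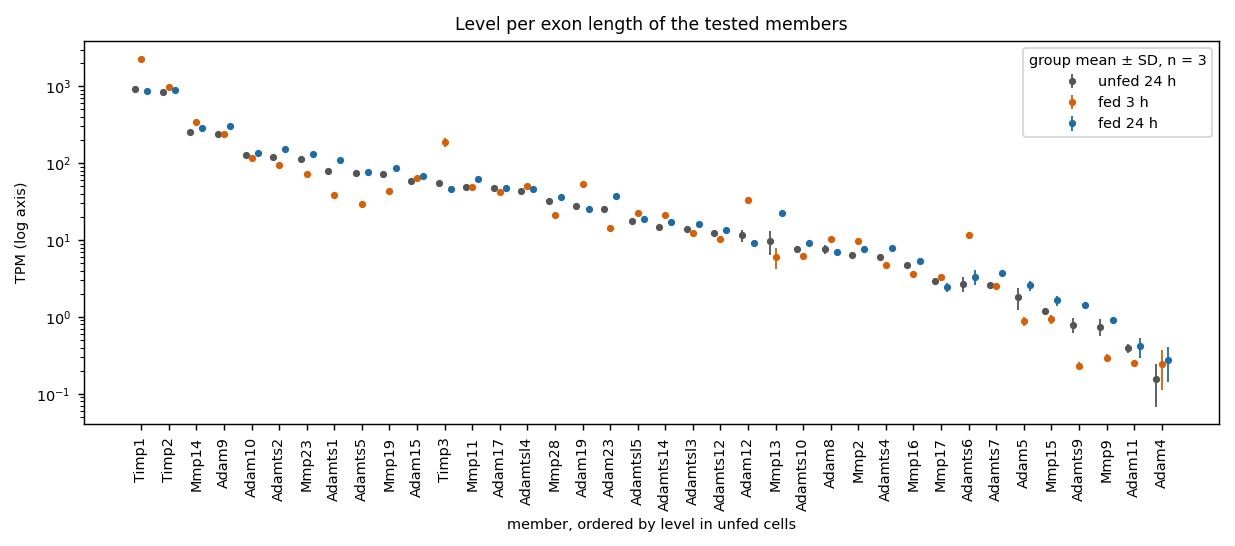
Mean TPM ± SD (n = 3 libraries per group, logarithmic axis) of the tested genes in unfed 24 h, fed 3 h and fed 24 h cells, ordered by the level in unfed cells. Timp1 and Timp2 are the highest in each group, and the fed 3 h points of Timp1, Timp3, Adam12, Adam19 and Adamts6 lie apart from those of the other groups.

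All 3 tested TIMPs rose at 3 h, where 25.2% of all tested genes were called higher. Timp1, a secreted inhibitor of most MMPs (chrX:20870166-20874735 in GRCm38), had 220.0, 226 and 221 CPM without feeding, 575, 532 and 576 after 3 h and 214, 217 and 207 after 24 h of feeding. All fed 3 h libraries were far above the rest, 2.52-fold over unfed cells (log2 1.33 ± 0.0446 SE, adjusted p = 1.69e-13). At 24 h the Timp1 libraries all lay just below the unfed ones, a difference that did not pass the test (log2 -0.06, adjusted p = 0.293). Timp3, which binds to the matrix and also blocks ADAM17 and the aggrecan-cutting ADAMTS proteases (chr10:86300372-86349506), had 111, 126 and 129 CPM without feeding, 490.4, 391 and 401 after 3 h and 98.5, 105 and 106 after 24 h of feeding. Its groups did not overlap in either comparison with unfed cells. It rose 3.51-fold at 3 h (log2 1.81 ± 0.0860 SE, adjusted p = 1.84e-08). At 24 h Timp3 was 103 CPM on average against 122, and its log2 difference of -0.24 ± 0.0851 (SE, adjusted p = 0.0535) missed the threshold; 8 of 17 alternative analyses called it lower, and over all 17 the value ran from -0.30 to -0.20. Timp3 shares 21.3% of its exon bases with Syn3 on the other strand, which stood at 0.00685 to 0.0554 CPM.

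Timp2, which inhibits MMPs and also takes part in the activation of pro-MMP2 by MMP14 (chr11:118301069-118355740), had 942, 896 and 903 CPM without feeding, 1120.0, 1059 and 1070.5 after 3 h and 976, 989.7 and 927 after 24 h of feeding. The fed 3 h libraries again lay above all others, by a smaller step (log2 0.25 ± 0.0464 SE, adjusted p = 2.23e-04), and the 24 h difference did not pass the test (log2 0.08, adjusted p = 0.220). Timp4 was near the detection limit, with counts of 2, 0 and 2 without feeding, 0, 1 and 0 after 3 h and 2, 1 and 6 after 24 h, and no difference was detectable at this depth. From 3 h to 24 h in fed cells, Timp1, Timp3 and Timp2 fell, with log2 fold changes of -1.40, -2.05 and -0.17 (adjusted p = 5.77e-14, 2.98e-09 and 0.00416). At 24 h against unfed cells, none of the 3 was called by edgeR's quasi-likelihood test, where 14.9% of all tested genes were called higher and 15.8% lower. Of the 3, 1 (Timp3) had an unadjusted p under 0.05, and DESeq2's Wald test and limma-voom both called Timp3 lower.

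The make-up of the TIMP pool differed with it. Timp1 made up 50.1% ± 0.856 of the summed TIMP TPM in unfed cells, 65.6% ± 0.914 at 3 h and 48.0% ± 0.207 at 24 h (SD, n = 3), and Timp3 made up 2.99% ± 0.248, 5.45% ± 0.529 and 2.54% ± 0.147. The summed MMPs stood at 547 ± 8.79 TPM without feeding, 547 ± 5.73 after 3 h and 649 ± 5.62 after 24 h (SD, n = 3). The summed TIMPs stood at 1820.0 ± 7.96, 3434 ± 92.6 and 1809 ± 17.4 TPM in the same order. The equal MMP sums without feeding and at 3 h hold for TPM alone. In CPM, not set per length, the summed MMPs were 665 ± 4.29, 746 ± 18.6 and 780 ± 18.0. The summed TIMPs were 1258 ± 13.3, 2072 ± 104 and 1280 ± 35.8 CPM. In TPM, the ratio of summed TIMPs to summed MMPs was 3.27, 3.34 and 3.37 without feeding, 6.38, 6.12 and 6.32 at 3 h and 2.78, 2.81 and 2.78 at 24 h. The 3 groups did not overlap: the ratio was highest at 3 h and lowest at 24 h. Summed ADAMTS proteases were 320.5 ± 8.07, 218 ± 5.09 and 399 ± 15.2 TPM, and the ratio of TIMPs to these was 5.68 ± 0.126, 15.8 ± 0.675 and 4.54 ± 0.193. Summed ADAMs were 547 ± 15.5, 578 ± 23.2 and 638 ± 41.7 TPM. These sums are of transcripts and are given as descriptions, with no test.

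**Figure D3:**
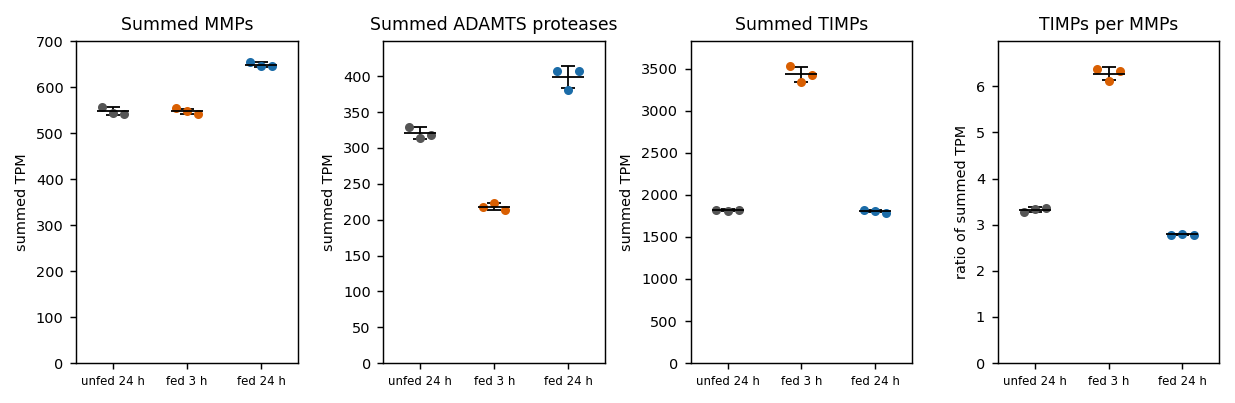
Summed TPM of the MMPs, ADAMTS proteases and TIMPs, and the ratio of summed TIMPs to summed MMPs, in each library (points) with the group mean ± SD (n = 3), on linear axes from 0. The TIMP sum is highest at 3 h, the ADAMTS sum is lowest at 3 h, and the MMP sum is highest at 24 h.

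Among the MMPs, the collagenase Mmp13 gave the largest difference at 24 h. Mmp13 cuts fibrillar collagens and is a product of osteoblasts and chondrocytes (chr9:7272514-7283331). It had 9.96, 5.24 and 6.40 CPM without feeding, 6.08, 4.13 and 3.34 after 3 h and 16.8, 15.6 and 18.0 after 24 h of feeding. All fed 24 h libraries lay above all unfed ones, 2.33-fold on average (log2 1.22 ± 0.268 SE, adjusted p = 0.0140). At 3 h the groups overlapped, with unfed replicate 2 below fed 3 h replicate 1, and the difference missed the threshold (log2 -0.67 ± 0.300 SE, adjusted p = 0.105). It was called without either of those libraries (-0.86 and -0.94) and in 4 of 17 alternatives in all, and was -0.37 without unfed replicate 1. From 3 h to 24 h it rose 3.72-fold (log2 1.90 ± 0.282 SE, adjusted p = 8.33e-04). The stromelysin gene Mmp3, which lies 162.5 kb from Mmp13 on chromosome 9, stayed near 0 with counts of 2, 2 and 6 without feeding, 0, 0 and 3 after 3 h and 4, 1 and 2 after 24 h.

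The 250 bases before the start site are shown for 4 genes (RefSeq, GRCm38.p6), because Mmp13 and Mmp3 share a motif and a neighbourhood but not a level, and Timp1 and Adamts1 moved in opposite directions at 3 h. Capitals mark TGANTCA, the AP-1 motif, searched on both strands; the regions are chr9:7272264-7272513, plus strand, chr9:7445572-7445821, plus strand, chrX:20869916-20870165, plus strand and chr16:85803114-85803363, minus strand.
Mmp13: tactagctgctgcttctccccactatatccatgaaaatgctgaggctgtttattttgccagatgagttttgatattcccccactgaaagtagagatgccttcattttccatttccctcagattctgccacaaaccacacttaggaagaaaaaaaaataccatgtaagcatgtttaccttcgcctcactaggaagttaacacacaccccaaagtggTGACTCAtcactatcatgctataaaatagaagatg
Mmp3: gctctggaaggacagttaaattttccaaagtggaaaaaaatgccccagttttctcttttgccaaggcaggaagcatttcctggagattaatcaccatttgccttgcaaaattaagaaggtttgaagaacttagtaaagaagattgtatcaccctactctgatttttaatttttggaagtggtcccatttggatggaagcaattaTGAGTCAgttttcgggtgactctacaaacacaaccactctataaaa
Timp1: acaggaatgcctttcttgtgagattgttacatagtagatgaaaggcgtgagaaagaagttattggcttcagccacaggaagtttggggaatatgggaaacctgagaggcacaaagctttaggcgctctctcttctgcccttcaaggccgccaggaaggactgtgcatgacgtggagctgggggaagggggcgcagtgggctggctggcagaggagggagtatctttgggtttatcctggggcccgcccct
Adamts1: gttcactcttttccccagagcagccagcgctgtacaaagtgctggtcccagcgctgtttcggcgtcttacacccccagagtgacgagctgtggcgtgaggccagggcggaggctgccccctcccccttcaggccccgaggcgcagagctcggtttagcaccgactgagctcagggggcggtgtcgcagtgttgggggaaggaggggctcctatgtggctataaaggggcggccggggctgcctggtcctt
The motif begins 35 bases before the start of Mmp13 and 46 bases before that of Mmp3. The RefSeq table held 31 promoters of 28 of the 45 genes. TGANTCA was in 3 of these 31 (9.68%), the third being 1 of 3 Adam19 starts, and in 6.75% of all 32851 promoters of that length. TATAAA was in 9.68% of them against 12.4% of all, and GGGCGG, the GC box, in 61.3% against 32.7%, both searched on both strands; none of the 3 motifs contains another. These matches are letters in a window and a description only.

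The gelatinases, which cut denatured collagen and type IV collagen, differed from each other. Mmp2 had 6.51, 5.65 and 5.60 CPM without feeding, 9.37, 8.46 and 9.95 after 3 h and 7.34, 7.09 and 6.79 after 24 h of feeding. The 3 groups did not overlap, and Mmp2 rose at 3 h (log2 0.65 ± 0.0917 SE, adjusted p = 1.05e-05). The 24 h difference passed narrowly (log2 0.26 ± 0.0927 SE, adjusted p = 0.0427) and was lost in 10 of 17 alternatives. Mmp9 was low, with 0.927, 0.596 and 0.667 CPM without feeding, 0.272, 0.326 and 0.280 after 3 h and 0.997, 0.839 and 0.863 after 24 h of feeding, which rest on 13 to 50 counts each. Its fed 3 h libraries lay below all others: Mmp9 fell by 1.31 ± 0.277 (SE, adjusted p = 6.29e-04) on the log2 scale at 3 h, and at 24 h its groups overlapped (log2 0.30, adjusted p = 0.348). The 24 h value was 0.51 without unfed replicate 1 and 0.17 without unfed replicate 2. Mmp11, stromelysin-3, did not pass at 3 h (log2 0.02, adjusted p = 0.747) and rose at 24 h (log2 0.38 ± 0.0503 SE, adjusted p = 3.12e-05), from 37.1 to 48.3 CPM.

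Of the membrane-type MMPs, Mmp14, a collagenase of the cell surface that activates pro-MMP2 (chr14:54431612-54445364), was the most abundant MMP. It had 403, 427 and 425 CPM without feeding, 586, 545 and 566 after 3 h and 485, 487 and 464 after 24 h of feeding. No groups overlapped: Mmp14 was highest at 3 h (log2 0.44 ± 0.0451 SE, adjusted p = 2.46e-07) and remained above unfed cells at 24 h (log2 0.20 ± 0.0450 SE, adjusted p = 0.00308). Mmp15 had 1.96, 1.64 and 1.67 CPM without feeding, 1.63, 1.28 and 1.34 after 3 h and 2.09, 2.48 and 2.78 after 24 h of feeding. Its 24 h rise (log2 0.48 ± 0.159 SE, adjusted p = 0.0276) was lost when replicate 2 or 3 of either group was left out. Mmp16 had 11.8, 11.1 and 11.4 CPM without feeding, 8.74, 9.22 and 8.61 after 3 h and 12.96, 13.1 and 11.8 after 24 h of feeding. It fell by 0.37 on the log2 scale at 3 h (adjusted p = 3.18e-04), and its 24 h value did not pass (log2 0.15, adjusted p = 0.124). Mmp17, which is held by a lipid anchor, was called between the fed groups, with a fall of 0.44 (adjusted p = 0.00148) from 3 h to 24 h. Its groups were also apart in both comparisons with unfed cells, which did not pass (log2 0.20, adjusted p = 0.131 at 3 h, and -0.24, adjusted p = 0.0978 at 24 h); Mmp24 had 65 counts in all and was not tested.

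Mmp19, Mmp23 and Mmp28 were each lower at 3 h and higher at 24 h than in unfed cells, which were collected at 24 h only. Over all tested genes, 25.6% were called lower at 3 h and 14.9% higher at 24 h. Other genes given below, such as Adam23 and Adamts1, differed from unfed cells in the same directions. Mmp19, a basement membrane-cutting enzyme (chr10:128790910-128800824), had 78.0, 66.7 and 67.7 CPM without feeding, 42.9, 44.4 and 41.2 after 3 h and 85.8, 86.7 and 82.4 after 24 h of feeding. Mmp23 had 77.3, 72.1 and 66.7 CPM without feeding, 46.2, 45.0 and 49.7 after 3 h and 84.6, 87.9 and 80.6 after 24 h, and Mmp28, or epilysin, had 37.1, 34.5 and 32.1 CPM without feeding, 21.1, 23.8 and 23.8 after 3 h and 38.8, 40.1 and 39.0 after 24 h. In all 3 genes the fed 3 h libraries lay below and the fed 24 h libraries above every unfed library. At 3 h the log2 fold change was -0.73 ± 0.0567 (SE, adjusted p = 7.14e-09) for Mmp19, -0.62 ± 0.0565 (SE, adjusted p = 5.82e-08) for Mmp23 and -0.59 ± 0.0627 (SE, adjusted p = 3.07e-07) for Mmp28. The 24 h rises were smaller, at 0.26, 0.23 and 0.18 (adjusted p = 0.00153, 0.00444 and 0.0263), and that of Mmp28 was lost without any 1 of unfed replicates 2 and 3 and fed 24 h replicates 1 to 3. Mmp19 shares 22.3% of its exon bases with Tmem198b on the other strand, which stood at 46.1 to 48.8 CPM; the strand setting of the counting is not known here.

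The proteolytically active ADAMs split at 3 h: 4 of 7 tested rose and 1 fell, or 57.1% and 14.3%, beside 25.2% and 25.6% of all tested genes. Adam12, a sheddase of growth factors found in mesenchymal cells (chr7:133883199-134232146), had 27.0, 35.4 and 37.9 CPM without feeding, 102, 94.97 and 93.7 after 3 h and 28.2, 26.0 and 26.8 after 24 h of feeding. The fed 3 h libraries were all above the rest, 2.90-fold over unfed cells (log2 1.54 ± 0.103 SE, adjusted p = 7.29e-07). Adam19, which sheds neuregulins (chr11:46055992-46147343), had 49.2, 57.0 and 58.0 CPM without feeding, 114, 99.95 and 103 after 3 h and 49.6, 47.6 and 51.2 after 24 h of feeding. It also rose at 3 h without overlap (log2 0.95 ± 0.0619 SE, adjusted p = 2.02e-09). Adam8, an ADAM known from leukocytes and osteoclasts, had 10.5, 8.22 and 10.3 CPM without feeding, 14.2, 13.6 and 12.7 after 3 h and 8.67, 8.75 and 9.85 after 24 h of feeding, a rise of 0.48 ± 0.0898 (SE, adjusted p = 1.95e-04) at 3 h; beside it, osteoclast markers summed to at most 0.200 CPM and Ptprc, which marks leukocytes, was at or under a mean of 0.0479 CPM in each group. The summed macrophage and leukocyte markers, given above, were also higher at 3 h than in unfed cells. Of the 5 tested, 3 were called higher and 2 lower at 3 h, or 60% and 40%, beside 25.2% and 25.6% of all tested genes. All these are mouse genes, so they do not assess RNA of the human neutrophils. What part leukocyte RNA had in the Adam8 result was not tested. By 24 h the 3 genes had fallen from their 3 h levels, with log2 fold changes of -1.85, -1.09 and -0.57 (adjusted p = 8.47e-08, 1.33e-10 and 1.88e-05).

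Adam12 was the 1 gene called lower at 24 h than in unfed cells (log2 -0.31 ± 0.106 SE, adjusted p = 0.0495), though unfed replicate 1 lay among the fed 24 h libraries. The call was lost in 11 of 17 alternatives, among them the fits without any 1 library other than that replicate; over all alternatives the value ran from -0.44 to -0.21. Adam19 (log2 -0.15, adjusted p = 0.0862) and Adam8 (log2 -0.09, adjusted p = 0.495) did not pass at 24 h, and Adam19 was called lower with no filter (-0.14) and without unfed replicate 1 (-0.22).

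The differences of the main sheddases were small. Adam17, the TNF-converting enzyme, had 95.6, 89.6 and 94.7 CPM without feeding, 83.9, 83.3 and 83.2 after 3 h and 94.8, 93.2 and 95.5 after 24 h of feeding. The fed 3 h libraries lay below all others, a fall of 0.16 ± 0.0415 (SE, adjusted p = 0.00319) on the log2 scale, and the 24 h value did not pass (log2 0.02, adjusted p = 0.776). Adam10, which cuts Notch and other receptors, had 175, 167 and 174 CPM without feeding, 167, 164 and 155 after 3 h and 185, 173 and 187 after 24 h of feeding. It passed neither test against unfed cells (log2 -0.09, adjusted p = 0.0943 at 3 h, and 0.08, adjusted p = 0.191 at 24 h) but was higher at 24 h than at 3 h (log2 0.17 ± 0.0445 SE, adjusted p = 0.00260). Adam9, a broadly expressed sheddase, rose at 24 h, from 269 ± 5.15 to 347 ± 23.6 CPM (SD, n = 3, log2 0.37 ± 0.0508 SE, adjusted p = 4.52e-05); its 3 h value did not pass (log2 0.05, adjusted p = 0.401). Adam15 rose at both times (log2 0.16 and 0.22, adjusted p = 0.00306 and 6.32e-04).

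Adam23, which has no active protease site and acts as a receptor for LGI proteins and integrins (chr1:63445891-63596276), had 136, 118 and 125 CPM without feeding, 72.4, 72.6 and 68.6 after 3 h and 185, 186 and 189 after 24 h of feeding. No groups overlapped. Adam23 fell by 0.83 ± 0.0498 (SE, adjusted p = 2.00e-10) on the log2 scale at 3 h and rose by 0.57 ± 0.0486 (SE, adjusted p = 6.52e-07) at 24 h. Adam11, of the same kind, was under 1 CPM in every library and was called between the fed groups alone (log2 0.69, adjusted p = 0.0397), a call lost in 9 of 16 alternatives. Of the ADAMs known from the testis, Adam5 had 1.96, 1.03 and 1.65 CPM without feeding, 0.901, 0.674 and 0.759 after 3 h and 2.57, 1.96 and 2.14 after 24 h of feeding. It fell by 0.98 ± 0.230 (SE, adjusted p = 0.00155) on the log2 scale at 3 h, and its 24 h value of 0.53 (adjusted p = 0.0547) missed the threshold in the reported fit and passed in 5 of 17 alternatives; it was 0.30 without unfed replicate 2. Adam4 was called in no comparison, and Adam1a, Adam21 and Adam32, with 54, 20 and 30 counts in all, were not tested.

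**Figure D4:**
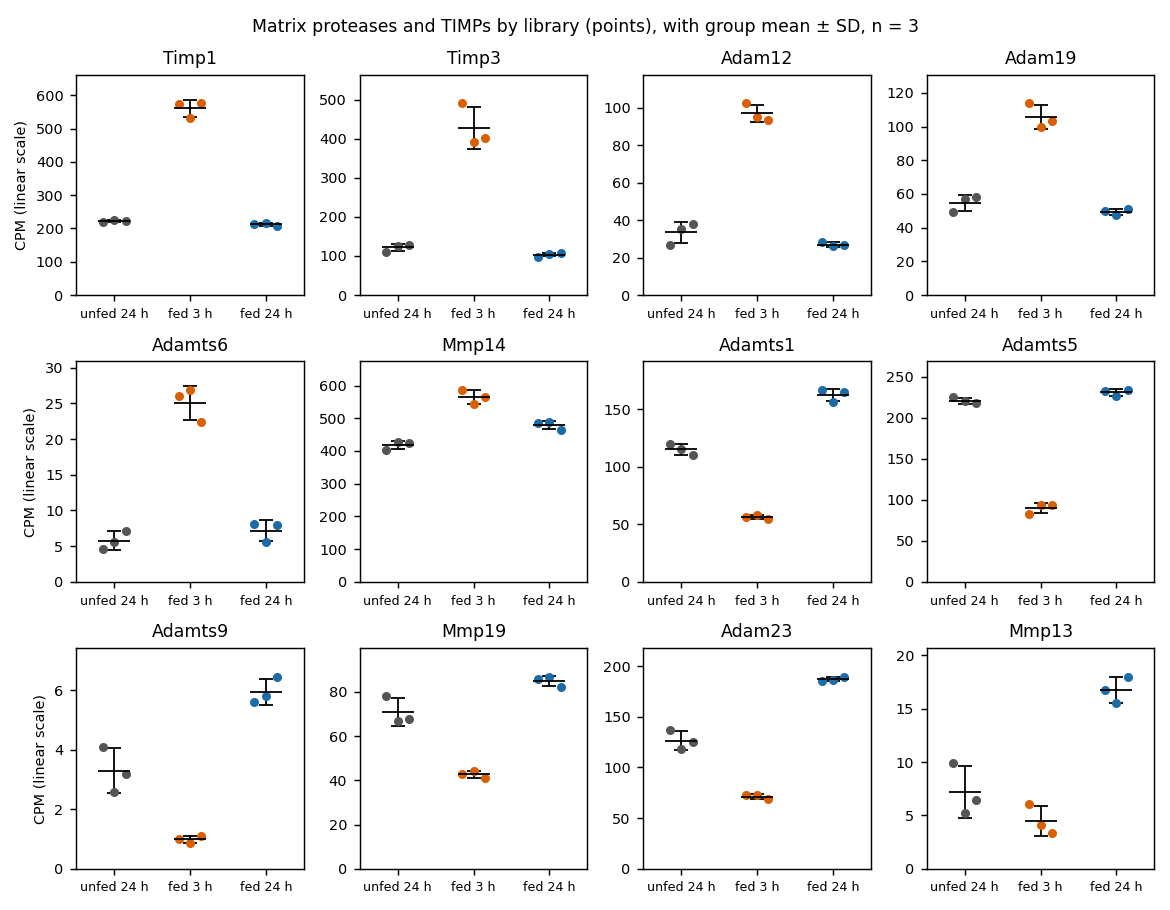
CPM (linear axes from 0) of 12 genes in each library (points), with group means ± SD (n = 3), for unfed 24 h, fed 3 h and fed 24 h cells. Timp1, Timp3, Adam12, Adam19 and Adamts6 are high in the 3 fed 3 h libraries alone, Adamts1, Adamts5, Adamts9, Mmp19 and Adam23 are lowest there, and Mmp13 is highest in the fed 24 h libraries.

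The 4 tested ADAMTS proteases grouped here as cutting aggrecan and versican all fell at 3 h, and 3 of the 4 were called higher than in unfed cells at 24 h. Over all tested genes, 25.6% were called lower at 3 h and 14.9% higher at 24 h. Adamts1 (chr16:85793827-85803113) had 119.7, 116 and 110.3 CPM without feeding, 56.5, 58.2 and 54.7 after 3 h and 167, 156 and 165 after 24 h of feeding. The 3 groups were fully separate, with a fall of 1.03 ± 0.0459 (SE, adjusted p = 3.71e-12) on the log2 scale at 3 h and a rise of 0.50 ± 0.0444 (SE, adjusted p = 9.73e-07) at 24 h. Adamts5, the main aggrecanase of mouse cartilage (chr16:85856173-85901828), had 225, 220.2 and 218 CPM without feeding, 83.2, 93.9 and 93.8 after 3 h and 233, 227 and 234 after 24 h of feeding. It fell by 1.29 ± 0.0477 (SE, adjusted p = 4.20e-13) at 3 h; at 24 h its libraries lay just above the unfed ones and the difference did not pass (log2 0.06, adjusted p = 0.315).

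Adamts9 (chr6:92772699-92943492) was lower in level, with 4.10, 2.59 and 3.18 CPM without feeding, 0.985, 0.870 and 1.10 after 3 h and 5.60, 5.79 and 6.44 after 24 h of feeding. It had the largest difference of all 38 genes between the fed groups, 6.01-fold higher at 24 h than at 3 h (log2 2.59 ± 0.165 SE, adjusted p = 1.85e-10). Against unfed cells it fell by 1.73 ± 0.173 (SE, adjusted p = 1.52e-07) at 3 h and rose by 0.85 ± 0.142 (SE, adjusted p = 2.28e-04) at 24 h. Adamts4 had 7.83, 7.97 and 8.20 CPM without feeding, 6.18, 6.40 and 6.47 after 3 h and 10.5, 10.5 and 10.2 after 24 h of feeding. Its groups did not overlap, and it fell by 0.33 (adjusted p = 0.00140) at 3 h and rose by 0.38 (adjusted p = 9.32e-04) at 24 h.

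The procollagen N-proteinases, which trim the ends of fibrillar procollagens, parted at 3 h. Adamts2 had 324, 296 and 299 CPM without feeding, 250.3, 239 and 243 after 3 h and 406, 393 and 393 after 24 h of feeding. It fell at 3 h, by 0.33 ± 0.0448 (SE, adjusted p = 6.96e-06) on the log2 scale, and rose at 24 h, by 0.37 ± 0.0446 (SE, adjusted p = 1.12e-05), with no overlap. Adamts14 had 20.9, 21.4 and 21.7 CPM without feeding, 32.9, 28.4 and 30.5 after 3 h and 25.1, 24.9 and 24.6 after 24 h of feeding. It rose at both times, by 0.52 ± 0.0588 (SE, adjusted p = 7.38e-07) at 3 h and 0.22 ± 0.0591 (SE, adjusted p = 0.00870) at 24 h. Adamts2 is the more abundant of the pair per length, at 119 ± 5.80 TPM in unfed cells, against 14.9 ± 0.393 for Adamts14.

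Adamts6, a protease linked to fibrillin microfibrils (chr13:104287835-104496695), gave the largest rise at 3 h. It had 4.59, 5.65 and 7.14 CPM without feeding, 26.1, 26.8 and 22.3 after 3 h and 8.04, 5.55 and 8.00 after 24 h of feeding. The fed 3 h libraries lay far above the rest, 4.33-fold over unfed cells (log2 2.12 ± 0.175 SE, adjusted p = 9.01e-06), and by 24 h the groups overlapped (log2 0.31, adjusted p = 0.254). The 24 h value was called higher with no filter on low counts (0.31) and without fed 24 h replicate 2 (0.47), and was 0.17 without unfed replicate 1 and 0.49 without unfed replicate 3. Its relative Adamts10, also tied to fibrillin, had 17.1, 17.4 and 18.1 CPM without feeding, 13.2, 15.6 and 13.9 after 3 h and 21.7, 19.5 and 21.7 after 24 h of feeding. It fell by 0.30 (adjusted p = 0.00166) at 3 h and rose by 0.26 (adjusted p = 0.00783) at 24 h. Adamts7 and Adamts12 both cut COMP, a cartilage and tendon protein. Adamts7 had 4.64, 4.23 and 4.71 CPM without feeding, 4.51, 4.31 and 4.72 after 3 h and 7.24, 6.11 and 6.04 after 24 h of feeding, with a rise at 24 h (log2 0.51 ± 0.104 SE, adjusted p = 0.00121) and overlapping groups at 3 h. Adamts12 fell by 0.25 (adjusted p = 5.50e-04) at 3 h, and its 24 h value was 0.10 (adjusted p = 0.138). Adamts7 shares 1.94% of its exon bases with Tbc1d2b on the other strand (129 to 191 CPM). Adamts16 had 21 counts in all and was not tested.

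The ADAMTS-like proteins lack a protease domain and bind fibrillin microfibrils and other matrix. Adamtsl4 and Adamtsl5 rose at 3 h (log2 0.21 and 0.37, adjusted p = 5.13e-04 and 6.06e-05) and did not pass at 24 h (log2 0.09 and 0.09, adjusted p = 0.137 and 0.281). Adamtsl3 went the other way, with a fall of 0.15 (adjusted p = 0.0265) at 3 h and a rise of 0.21 (adjusted p = 0.00802) at 24 h. The 3 h call of Adamtsl3 was lost when replicate 2 or 3 of the unfed group or replicate 3 of the fed 3 h group was left out. Between the fed groups, Adamtsl4 was lower at 24 h than at 3 h (log2 -0.12, adjusted p = 0.0193), a call lost when replicate 1 of either fed group was left out and with no filter on low counts.

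Genes that work with these proteases were counted in lists drawn up from general knowledge, though with earlier results of these data known. Of 13 tested activators, inhibitors and clearance factors, 8 rose and 3 fell at 3 h, and 5 rose and 2 fell at 24 h (median log2 0.21 and 0.04). The shares were 61.5% and 23.1% at 3 h and 38.5% and 15.4% at 24 h, of which those that fell were near the shares over all tested genes (25.6% at 3 h and 15.8% at 24 h); over all tested genes, 25.2% and 14.9% rose. Among the rises at 3 h were those of Plaur, the urokinase receptor (log2 1.43), and Cd44, a docking site for MMPs (log2 1.33). Serpine2 rose by 0.68 and Reck, a membrane inhibitor of MMPs, by 0.39 at 24 h. Of 7 tested partners of the ADAM10 and ADAM17 sheddases, 2 rose and 2 fell at 3 h and 1 rose at 24 h (median log2 0.00317 and 0.00318), or 28.6%, 28.6% and 14.3%, close to the shares over all tested genes. Tspan17, which escorts ADAM10, fell by 0.61 at 3 h.

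Of 17 tested ligands and receptors that ADAMs shed, 8 rose and 4 fell at 3 h, and 4 rose and 3 fell at 24 h (median log2 0.11 and 0.07). The shares that fell, 23.5% and 17.6%, were near those over all tested genes, and the shares that rose were 47.1% and 23.5%, beside 25.2% and 14.9%. Hbegf (log2 1.26) and Ereg (log2 0.98), ligands of the EGF receptor, rose at 3 h. Kitl, the stem cell factor of the marrow niche, fell by 1.30 at 3 h and rose by 0.34 at 24 h, and Vcam1, an adhesion molecule, fell by 0.60 at 3 h. Of 12 other tested matrix enzymes, 6 rose and 3 fell at 3 h, and 7 rose at 24 h (median log2 0.21 and 0.18). The 25.0% that fell at 3 h was near the share over all tested genes, and 50.0% and 58.3% rose, beside 25.2% and 14.9%. Among these, the collagen-degrading cathepsin Ctsk rose at both times (log2 0.41 and 0.52), Bmp1, the procollagen C-proteinase, rose by 0.39 at 24 h, and Htra3 fell by 1.53 at 3 h. Of 15 tested matrix substrates, 5 rose and 7 fell at 3 h, and 3 rose and 1 fell at 24 h (median log2 -0.11 and 0.05). The shares that rose, 33.3% and 20.0%, stood beside 25.2% and 14.9% over all tested genes, and those that fell, 46.7% and 6.67%, beside 25.6% and 15.8%. Tnc, tenascin-C, rose at 3 h (log2 1.95), and Spp1, osteopontin, fell by 0.44 at 3 h and rose by 0.63 at 24 h. Acan, the aggrecan gene, had no counts in any library.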

How the data were processed

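RNA of ST2 cells, sorted for dye uptake in the fed groups, was sequenced in 9 libraries. The deposited table holds whole-number read counts per gene symbol; the submitters' processing notes name STAR 2.7.0f, Subread 1.6.4 with featureCounts, MultiQC 1.7 and the builds GRCm38.p6 and GRCh38.p13. Not given in the sources used here are the annotation, the strand setting and how reads with several matches were counted, and the protocols in the labels name different library kits, so strand is unresolved.

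Counts were tested here as deposited with edgeR 4.0.16 in R 4.3.3 (TMM scaling, filterByExpr, a quasi-likelihood fit over the 3 groups with robust dispersion shrinkage, Benjamini-Hochberg adjustment over 13568 genes, threshold 0.05); the common biological coefficient of variation was 0.0536. SEs are the absolute log2 fold change over the root of F. CPM used TMM-scaled library sizes, and TPM used merged exon lengths of GENCODE M21 (54484 of 55453 symbols). Coordinates are GRCm38. The code was tested on simulated data. Alternatives were DESeq2 1.42.0 (size factors, and its Wald test), limma-voom (limma 3.58.1), no filter, a stricter filter (1 CPM in 3 libraries), the 6 libraries compared alone, a replicate block, leaving out each library, and, added after seeing the data, leaving out Gm42418, Gm26917 and mitochondrial genes.

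Named genes are the TIMPs, Mmp2, Mmp3, Mmp9, Mmp13, Mmp14, Adam10, Adam17, Adamts1, Adamts4 and Adamts5, and every gene of the set called at least once whose highest group mean reached 2 CPM; from each other list, up to 3 called genes per direction with the largest fold change and at least 5 CPM could be named; some results on such genes are not reported here. Adam11, Adam4 and untested genes are named to account for every member. The genes, roles and lists were chosen with earlier results of these data known. Libraries of a group differed by more than sampling noise (chi-square per degree of freedom 5.53 to 16.5), so none was counted as a duplicate. The labels name no batch.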

Additional observations from a re-analysis of the deposited data

How the results depend on the processing

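No called gene of the set changed sign in any alternative. Calls held in all alternatives for 28 of 29 genes at 3 h, 16 of 20 at 24 h and 34 of 36 between the fed groups, and those lost are given with their genes above. Leaving out each library gave 13 higher and 15 to 17 lower at 3 h, 16 to 20 higher and 0 to 3 lower at 24 h, and 22 to 23 higher and 12 to 14 lower between the fed groups. The count lower at 24 h, 1 in the reported fit (4 at an unadjusted p under 0.05), was 0 with DESeq2 size factors in edgeR (4 unadjusted), 2 with DESeq2's Wald test, 2 with limma-voom, 3 with no filter and 2 with the stricter filter; it was 3 without unfed replicate 1 and 0 without any 1 of unfed replicates 2 and 3, fed 3 h replicate 3 and the fed 24 h replicates. The count was again 1 with the 6 libraries compared alone and without fed 3 h replicate 1 or 2, but the gene called there was Timp3 and not Adam12. Same-numbered replicates showed no clear shared deviation (correlations of -0.163 to 0.0578). With 3 replicates per group, this cannot show whether the numbers pair the libraries. Fed 24 h replicates 1 and 2 correlated best with the unfed library of their own number (0.0508 and 0.0578), and replicate 3 did not. With a replicate block, edgeR called 20 higher and 0 lower at 24 h (4 lower unadjusted), 13 and 17 at 3 h, and 22 and 13 between the fed groups. Values near 0 that changed sign were those of Mmp11 at 3 h (-0.0208 to 0.0613 when leaving out each library), Adam17 at 24 h (-0.00916 to 0.0379), Adam11 at 24 h (-0.167 to 0.245), Adam4 between the fed groups (-0.187 to 0.672) and Adamts7 at 3 h (-0.0522 to 0.0288; 0.00177 with DESeq2 size factors and 0.00199 with its Wald test); the cause was not tested. Genes with few counts, such as Timp4, Mmp3 and Adam4, are limited by depth.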

Other observations

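Adamts1 and Adamts5 are neighbours on chromosome 16, 53.1 kb apart. Both fell at 3 h (log2 -1.03 and -1.29). At 24 h against unfed cells, Adamts1 was called higher (log2 0.50, adjusted p = 9.73e-07) and Adamts5 was not (log2 0.06, adjusted p = 0.315); the difference between the genes was not tested. Adam5 and Adam9 lie 125.2 kb apart on chromosome 8, with Adam32 (30 counts in all, not tested) between them. Adam5 fell by 0.98 at 3 h, where Adam9 had a log2 value of 0.05 (adjusted p = 0.401). These pairs were chosen after their values were seen.

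Unfed replicate 1 lay toward the fed 24 h libraries for several genes. Its Mmp13 level was 9.96 CPM, where the other two unfed libraries had 5.24 and 6.40. Its Adam12 level was 27.0 CPM, where the others had 35.4 and 37.9. Without this library, the 24 h rise of Mmp13 was 1.53 on the log2 scale, and Adam12 (-0.44), Timp3 (-0.30) and Adam19 (-0.22) were called lower at 24 h. These genes were chosen after their values were seen.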
